A study of Rattus norvegicus with 6 samples.

Results

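Bhlha15, the gene for the transcription factor Mist1, and 9 genes for proteins that fold secreted proteins in the endoplasmic reticulum (Hyou1, Hspa5, Hsp90b1, Calr, Canx, Pdia3, Pdia4, P4hb and Rcn3) were followed in the rat dorsolateral prostate after much or little corn oil. They are 10 of the 4736 genes named on the array. Every probe set annotated to 1 of these genes was taken, whether bright or dim, which gave 25 probe sets, and 24 of them were bright enough to be tested. The genes were picked because the 3 high and 3 low corn oil arrays had already been seen to differ in some of them, that is, they were chosen by the measured difference between the diets, so the differences given here are descriptions and are offered with no test. The question is how large those differences were, how far the probe sets of a gene bore each other out, and whether the folding genes followed Bhlha15 from array to array.

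The RNA came from 6 male rats of the inbred ACI strain, 3 on a high and 3 on a low corn oil diet, the second of which the design also calls the control diet. Feeding lasted 18 months and the labels give the age of every rat as 18 months, a pair of statements that leave the age at the start of feeding unclear. Each rat had its own short-oligonucleotide array. Arrays are named high 1 to high 3 and low 1 to low 3 after the replicate number in their titles. The title and source name of high 3 give the high diet, but its description gives the low diet, and it was kept with the high group. The sources used here do not give the oil content of either diet or the cell make-up of the pieces of tissue.

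Mist1 is a basic helix-loop-helix factor of cells that make and export much protein, such as pancreatic acinar, salivary and plasma cells, where it enlarges the secretory machinery. The chaperones of the endoplasmic reticulum bind new secretory proteins as they enter, keep them from clumping, read their sugar chains and form their disulfide bonds. When unfolded protein builds up, the unfolded protein response raises many of these genes together through ATF6 and XBP1, which act with the CCAAT-binding factor NF-Y at a paired sequence called the endoplasmic reticulum stress element. The prostate epithelium is a secretory tissue, and its luminal cells export large amounts of a few proteins into the seminal fluid.

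The promoters of the folding genes are shown first because 5 of them were found to carry the element through which such genes are known to be raised together. RefSeq promoter windows on the GRCr8 build, each from 250 bases before to 50 bases after the transcription start, were found for 8 of the 10 genes. There was none for Pdia3 or Rcn3 in the table used here. Both strands were searched for the first form of the element, which is CCAAT, then any 9 bases, then CCACG, and for the second, which is ATTGG, then any 1 base, then CCACG. One form or the other was present in the windows of 5 of the 8 genes, against 38 of 27457 genes with a window in the whole table, or 0.138%. The element is already known from the control of genes of this kind, so that share is a description and supports nothing. Hspa5, Hsp90b1, Calr and Canx had the first form, which 0.0657% of all 33469 windows held, and Hyou1 had the second, which 0.0508% held. Bhlha15, Pdia4 and P4hb had neither in these windows. The E-box CATATG, a sequence Mist1 is known to bind, was in 4.11% of all windows and in 0 of these 8 genes, which says only that those letters are not in these windows. The stretches that hold the elements follow, 5′ to 3′ on the strand of the gene, with the fixed letters of each element in capitals.
Hspa5, chr3:38452916-38453015, plus strand: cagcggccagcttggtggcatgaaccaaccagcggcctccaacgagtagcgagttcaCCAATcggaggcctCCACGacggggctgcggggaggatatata
Hsp90b1, chr7:23012334-23012483, minus strand: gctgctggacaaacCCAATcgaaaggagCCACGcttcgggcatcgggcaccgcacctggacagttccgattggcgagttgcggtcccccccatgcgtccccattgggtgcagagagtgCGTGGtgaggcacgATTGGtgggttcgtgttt
Hyou1, chr8:53602682-53602821, plus strand: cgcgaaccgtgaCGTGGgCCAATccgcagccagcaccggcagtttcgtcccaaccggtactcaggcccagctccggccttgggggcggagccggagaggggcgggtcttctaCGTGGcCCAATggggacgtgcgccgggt
Calr, chr19:40213122-40213171, plus strand: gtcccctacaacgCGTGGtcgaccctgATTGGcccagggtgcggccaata
Canx, chr10:35158053-35158102, minus strand: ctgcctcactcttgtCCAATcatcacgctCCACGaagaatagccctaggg
In Hspa5 the element lay 43 to 25 bases before the start and ran with the gene. Hsp90b1 had 1 copy with the gene, 176 to 158 bases before the start, and 1 against it, 72 to 54 bases before. Both copies in Hyou1 ran against the gene, 188 to 178 and 88 to 78 bases before the start. Calr had its copy 232 to 214 bases before the start against the gene, and Canx had its copy 230 to 212 bases before the start with the gene. Hyou1 has a second start in the table, whose window held no match, and no match overlapped another. These matches are letters in a reference sequence and no binding was measured. The other 4 tested genes with either form had a median log2 difference between diets of 0.093, with 2 of 4 higher, and the 2610 tested genes with neither had a median of 0.049, with 56.1% higher.

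The arrays themselves bear on all the values that follow. High 1 was less like its own group than like the low group. Over the tested probe sets its Spearman rank correlation was 0.869 with high 2 and 0.881 with high 3, but from 0.927 to 0.950 with the low arrays. The arrays also differed in the bacterial spike-in controls. Their signal was above the median on high 1, low 1 and low 2 and below it on high 2, high 3 and low 3. Yet the trimmed means of the deposited values, with 2% of values left off at each end, were all 2503 or 2504. The 8 luminal markers of the secretory epithelium include Sbp, which is also a secretory gene of the ventral lobe. None of the 8 was at or below 0 on all arrays, and 4 were higher, with a median log2 difference of -0.0092. Their summed level was 205238 to 306022 on the high and 269509 to 308193 on the low arrays. Probasin (Pbsn), a secretory protein of this epithelium, read 99574, 19851 and 21926 on the high arrays against 78113, 82039 and 81437 on the low ones. Over all 5244 tested probe sets limma called 0% different between the diets at an adjusted p of 0.05, and 522 of them, or 9.95%, had an unadjusted p under 0.05. The smallest adjusted p in limma was 0.462. Differences are therefore given as higher or lower in these arrays, with their standard errors (SE) from that fit. They are on the scale log2(value + 156.1), on which a difference of 1 is a doubling for a bright probe set. RNA came from whole tissue, so more cells of a type and more RNA per cell cannot be told apart.

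Bhlha15 was higher on all 3 high corn oil arrays. Its probe set U58279_at read 8686, 11631 and 12179 on high 1, 2 and 3, and 5620.1, 5519 and 5576 on low 1, 2 and 3. The low arrays were close to each other, the largest being 1.02 times the smallest, while the high arrays spread 1.40-fold with high 1 nearest to the low group. The groups did not overlap. The means were 10832 ± 1878 (SD, n = 3) and 5572 ± 50.6 (SD, n = 3), a ratio of 1.94, and the log2 difference was 0.92 ± 0.16 (SE). This is 1 probe set, so no second measure of the gene was at hand. With high 3 counted as a low array, as its description has it, the log2 difference was 0.56 ± 0.35 (SE), because high 3 has the highest value of the 6.

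Hyou1 encodes the large Hsp70-like chaperone ORP150, which also serves as a nucleotide exchange factor for BiP. Probe set rc_AI009098_at read 17532, 22513 and 19729.9 on the high arrays and 12928, 11562 and 13857 on the low arrays. Probe set U41853_at read 5936.5, 5537 and 5916 on the high arrays and 4901, 3642.5 and 4116 on the low arrays. In both, every high array lay above every low array, so 2 probe sets made from different sequence records put the gene on the same side. The log2 differences were 0.63 ± 0.15 (SE) for the first, whose means were 19925 ± 2496 and 12782 ± 1154 (SD, n = 3 each), and 0.45 ± 0.16 (SE) for the second. Hyou1 was the only one of the 8 chaperone genes whose probe sets all kept the diets apart.

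Hspa5 encodes BiP, the abundant Hsp70 of the endoplasmic reticulum and the best known target of the unfolded protein response. Its brightest probe set, M14050_s_at, read 34560.2, 42474.5 and 42236 on the high arrays and 36019.9, 30149.6 and 27892 on the low arrays. High 2 and high 3 were above all low arrays, but high 1 was below low 1, so the groups overlapped. The log2 difference was 0.34 ± 0.16 (SE). S63521_i_at read 5874, 8201 and 5203 against 4337, 3824 and 5681, a log2 difference of 0.46 ± 0.23 (SE), and here it was high 3 that fell among the low arrays. The third probe set, S63521_r_at, is made from the same record and was too dim to test, with values from 16.7 to 415 on the high and from 2.6 to 127 on the low arrays.

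Hsp90b1 encodes GRP94, the Hsp90 of the endoplasmic reticulum, which folds integrins, Toll-like receptors and insulin-like growth factors. Its 3 probe sets did not give 1 direction. AA685903_at read 14198, 16454 and 13939 on the high arrays and 11078, 9502 and 15869 on the low arrays, and S69316_s_at read 18622, 15496 and 13791.5 against 13982.5, 10640.3 and 12971. In the first, low 3 lay among the high arrays, and in the second low 1 was above high 3. Their log2 differences were 0.32 ± 0.21 and 0.34 ± 0.17 (SE). S69315_at read 37784.5, 22465 and 24050.5 on the high arrays and 32255, 31250.3 and 34478 on the low arrays, which put high 2 and high 3 below all low arrays and high 1 above them. Its log2 difference was -0.25 ± 0.21 (SE), and without high 1 it was -0.49.

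Calreticulin (Calr) and calnexin (Canx) are the soluble and the membrane-bound lectin chaperones that hold glycoproteins until their sugar chains have been trimmed. Calr was represented by 3 probe sets. D78308_at read 41626, 37338 and 41033 on the high arrays and 35912, 24561 and 33982 on the low arrays, and X53363cds_s_at read 23019, 21812 and 21527 against 18409, 18051 and 19596. In both, the 3 high arrays were above the 3 low arrays, with log2 differences of 0.36 ± 0.17 and 0.24 ± 0.12 (SE). Low 2 set much of the first: without it the difference was 0.19. The third, D78308_g_at, made from the same record as the first, read 32946, 26713 and 30912 against 29832, 30625 and 27703, with high 2 the lowest of all and a log2 difference of 0.035 ± 0.13 (SE).

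For all 5 Canx probe sets the low arrays differed among themselves more than the means of the diets did. Probe set rc_AI235707_g_at read 12157, 16529 and 16859 on the high arrays and 6780.1, 11038.5 and 20723 on the low arrays, a 3.06-fold spread within the low group. The probe sets rc_AI010725_at, rc_AI010725_g_at and rc_AA893328_at spread 2.05, 2.11 and 2.09 times over the low arrays. In these 4, low 1 was the lowest array and low 2 was below every high array. In 3 of the 4, low 3 was the highest of the 6 arrays, and in rc_AA893328_at it was second to high 3. The 4 log2 differences ran from 0.24 to 0.42 with SE from 0.25 to 0.38. Without low 3 the difference of rc_AI235707_g_at was 0.78, and without low 1 it was -0.011. The fifth, L18889_at, read 23450.2, 16297 and 18591 against 18419.9, 22432.5 and 27403, with a log2 difference of -0.22 ± 0.20 (SE).

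Pdia3, Pdia4 and P4hb encode disulfide isomerases: ERp57, which works with calnexin and calreticulin on glycoproteins, ERp72, and protein disulfide isomerase itself, which is also the beta subunit of collagen prolyl hydroxylase. None of their 6 probe sets kept the diets apart, and each difference was smaller than its SE. For Pdia3, X12355_s_at read 36279.7, 24291 and 27281 on the high arrays and 35184, 30672 and 31769.9 on the low arrays, a log2 difference of -0.17 ± 0.18 (SE), and the dimmer rc_AA892637_at ran from 1089 to 1932 on the high and from 1210.4 to 1582 on the low arrays, a difference of 0.066 ± 0.24 (SE). Pdia4, probe set M86870_at, read 16464, 12690.1 and 8777 against 14392, 11223 and 10262. High 1 was the highest and high 3 the lowest of the 6, and the log2 difference was 0.048 ± 0.25 (SE). P4hb probe set X02918_at read 53049, 41251.5 and 48558 on the high arrays and 39289, 42493 and 47250 on the low arrays, a difference of 0.14 ± 0.15 (SE). Its other probe sets, X02918_g_at and M21476_s_at, gave 0.022 ± 0.18 and 0.16 ± 0.23 (SE).

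Rcn3, a calcium-binding protein of the reticulocalbin family, was lower on the high corn oil diet. Probe set rc_AA875665_g_at read 533, 186 and 625 on the high arrays and 2935, 2069 and 1368 on the low arrays. Probe set rc_AA875665_at, from the same record, read 47.4, 433 and -105.6 against 1122, 788 and 627. Every high array was below every low array in both, and high 3 was below 0 in the second, so its size depends on the pseudocount. That probe set passed the filter on low values only through the low arrays. The log2 differences were -1.94 ± 0.40 and -1.89 ± 0.54 (SE). For the brighter of the pair the low mean of 2124 ± 785 was 4.74 times the high mean of 448 ± 232 (SD, n = 3 each). Fibroblast markers lay on the same side: 0 of 9 tested were higher on the high corn oil diet, the median log2 difference was -0.60, and 7 had groups that did not overlap. Their summed level ran from 97524 to 115984 on the high and from 141022 to 176021 on the low arrays, and no fibroblast marker on the array was at or below 0 on all arrays. The macrophage and myeloid, smooth muscle, skeletal muscle, and T and mast cell lists had medians on that side too. The 2 tested plasma and B cell markers lay on the other side, with a median of 0.43. The 1 tested endothelial marker was at -0.073. Of the macrophage and myeloid markers 0 of 6 were higher, with a median of -0.63, 4 that did not overlap, and summed levels of 37524 to 60482.5 on the high and 56606 to 62400.1 on the low arrays. Of the smooth muscle markers 1 of 9 was higher, with a median of -0.28 and summed levels of 145080.5 to 189015 against 176296 to 220774. In the skeletal muscle list 0 of 5 tested were higher, with a median of -0.30 and diets that overlapped in all 5. Its summed levels varied widely on the high arrays, from 13538 to 32950 against 23525 to 27156. Of the T and mast cell markers 1 of 3 was higher, with a median of -0.17. The mast cell protease Mcpt1l1 was at -1.62 ± 0.34 (SE) with diets that did not overlap. The T cell genes Cd4 and Cd3g were at -0.17 ± 0.27 and 0.0096 ± 0.24 (SE). The summed levels of that list were 3531 to 5198 against 7942 to 9000.5. No marker of these lists on the array was at or below 0 on all arrays. The part of these cell types in the Rcn3 values was not tested.

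**Figure D1:**
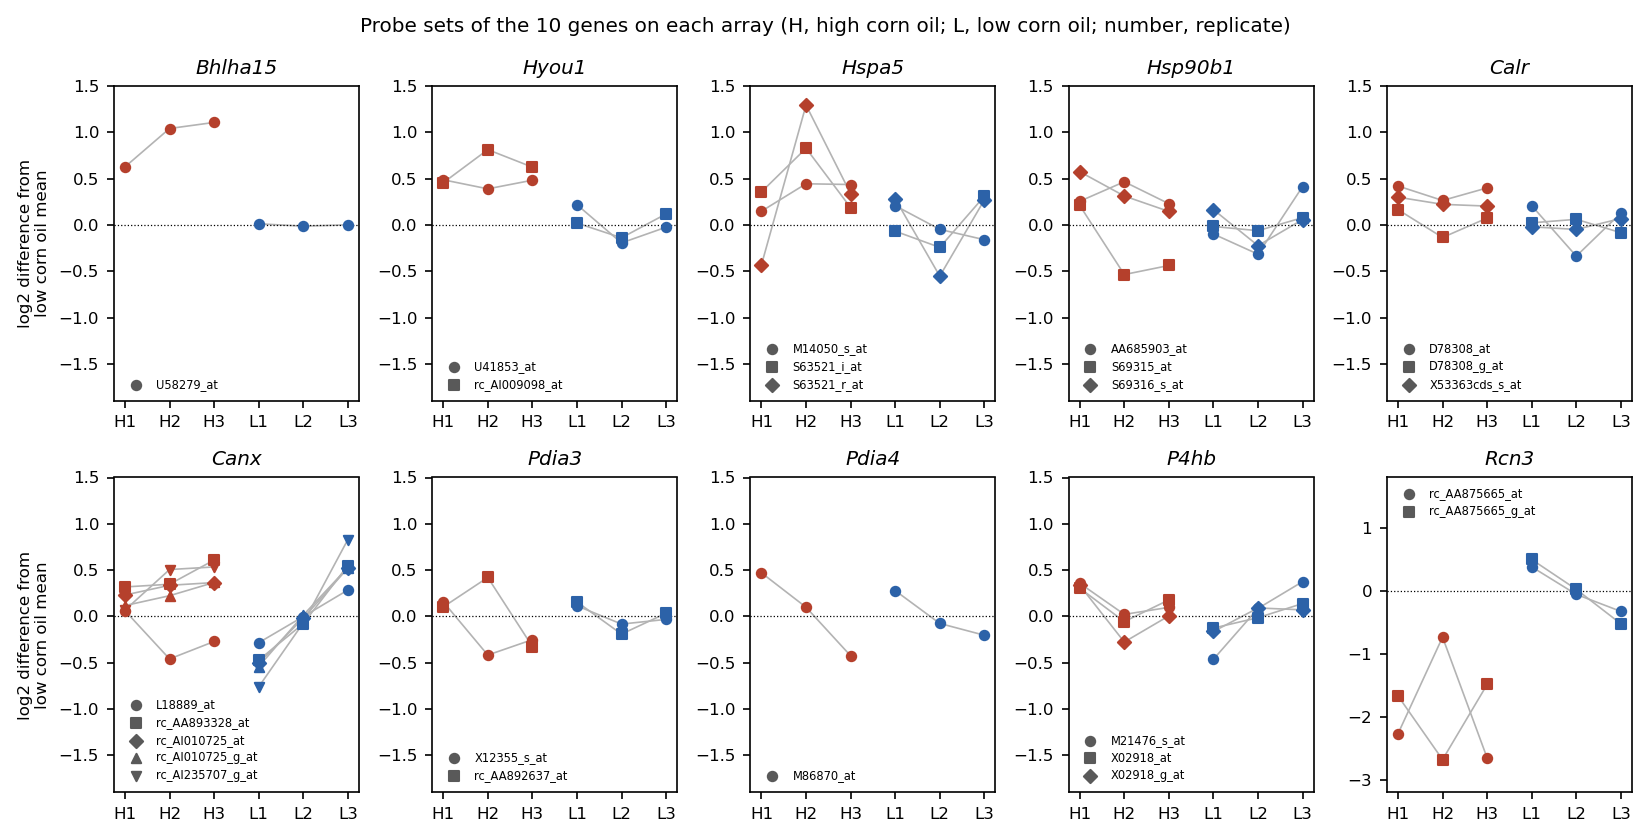
Values of the 25 probe sets on each of the 6 arrays, in log2 units relative to the mean of the 3 low corn oil arrays, with high and low arrays in separate colours. Bhlha15 and both Hyou1 probe sets have all high arrays above all low arrays, all 5 Canx probe sets are lowest on low 1 and highest on low 3 within the low group, and both Rcn3 probe sets lie far below 0 on the high arrays.

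Counted together, 5 of the 25 probe sets had all high arrays above all low arrays (Bhlha15, both of Hyou1 and 2 of Calr), and both of Rcn3 had all high arrays below. Of all tested probe sets, 15.5% did not overlap between the diets, 8.83% on the higher side and 6.71% on the lower side. Among the 22 chaperone probe sets, which leave out Bhlha15 and Rcn3, 19 had a log2 difference above 0, or 86.4%, against 53.9% of all tested probe sets. Their median was 0.28 against 0.032 for all. Since the contrast chose these genes, and several probe sets share a gene or a sequence record, these shares describe the members and support nothing. Leaving out low 1 left 15 of 22 higher with a median of 0.17.

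**Figure D2:**
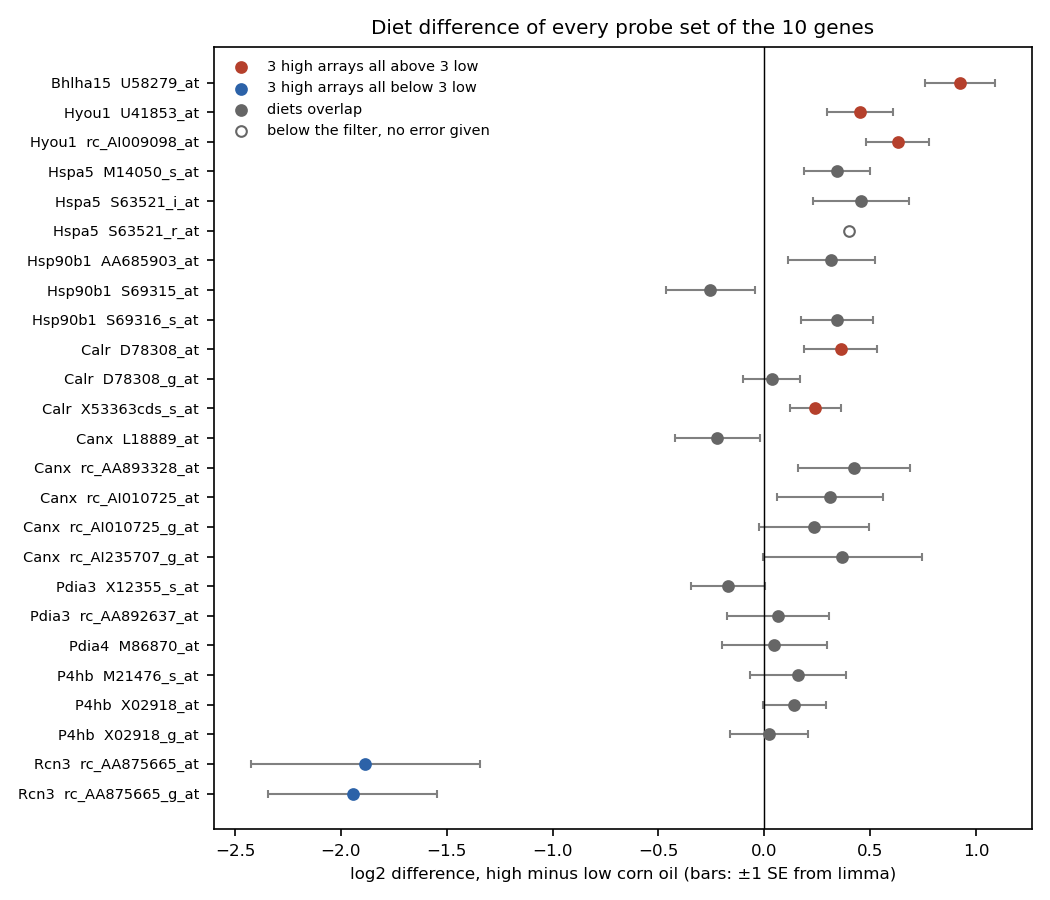
Log2 difference between high and low corn oil arrays for each of the 25 probe sets, with bars of 1 SE from the fit over all tested probe sets and no bar for the probe set that was not tested. The differences run from -1.94 for Rcn3 to 0.92 for Bhlha15, and most of the chaperones lie between 0 and 0.46.

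Within a diet, the folding genes put the arrays in the order of Bhlha15 about as often as all tested probe sets did. Bhlha15 separated the 6 arrays by diet, so a correlation over all 6 would restate the diet difference, and 3 arrays per diet are too few for one within a diet. Instead, each probe set was scored by how many of the 6 pairs of arrays of the same diet it put in the order Bhlha15 did. The chaperone probe sets had a median of 3.5 of 6 pairs, against 3 for all tested probe sets. The low pairs carry little, because Bhlha15 itself hardly differed among the low arrays. In the high group, where Bhlha15 was lowest on high 1 and highest on high 3, the order was the same in 4 of 22 chaperone probe sets, or 18.2%, and all 4 were of Canx. That share was 18.3% over all tested probe sets. In 3 of 22, or 13.6%, the order was fully turned round (S69316_s_at of Hsp90b1, X53363cds_s_at of Calr and M86870_at of Pdia4), against 16.1% of all.

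The high array with the least Bhlha15 had the most chaperone probe sets above the low mean. On high 1 Bhlha15 was 0.63 above the low mean on the log2 scale, against 1.04 on high 2 and 1.11 on high 3. Yet 21 of 22 chaperone probe sets were above the low mean on high 1, against 16 on high 2 and 17 on high 3. The median chaperone difference from the low mean was 0.28, 0.29 and 0.20 on high 1, 2 and 3. Over all tested probe sets that median was 0.0063, 0.11 and 0.030, and -0.019, -0.0081 and 0.045 on low 1, 2 and 3. The share of all tested probe sets above the low mean is not given here for any array. On the low arrays Bhlha15 stayed within 0.013 of its mean, while the chaperone median was -0.019, -0.073 and 0.12 on low 1, 2 and 3, with 10, 4 and 17 of 22 above the low mean. Low 3 thus had as many chaperone probe sets above the low mean as high 3, at a Bhlha15 value of 5576 against 12179.

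The chaperone differences were also unequal between arrays of high and low spike-in signal. Among the arrays with spike-in signal above the median, high 1 exceeded the mean of low 1 and low 2 in 21 of 22 chaperone probe sets, with a median log2 difference of 0.38. Among those below the median, the mean of high 2 and high 3 exceeded low 3 in 11 of 22, with a median of -0.027. The medians of all tested probe sets were 0.020 and 0.010. Bhlha15 was higher in both subsets, by 0.63 and 1.07, and so were rc_AI009098_at (0.51 and 0.60) and U41853_at (0.48 and 0.46) of Hyou1. For Hspa5, M14050_s_at was 0.068 in the first subset and 0.60 in the second. All 5 Canx probe sets were on opposite sides in the subsets: rc_AI235707_g_at was 0.48 and -0.31, and L18889_at 0.20 and -0.65. So were S69315_at of Hsp90b1, at 0.25 and -0.57, and M21476_s_at of P4hb, at 0.55 and -0.32. Rcn3 was lower in both subsets, by -1.93 and -1.56 for rc_AA875665_g_at. With a single array on 1 side of each subset, none of these values has a replicate check, and with the spike-in level as a block in the fit the chaperone median was 0.15. The part of the spike-in level in the chaperone values was not tested.

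**Figure D3:**
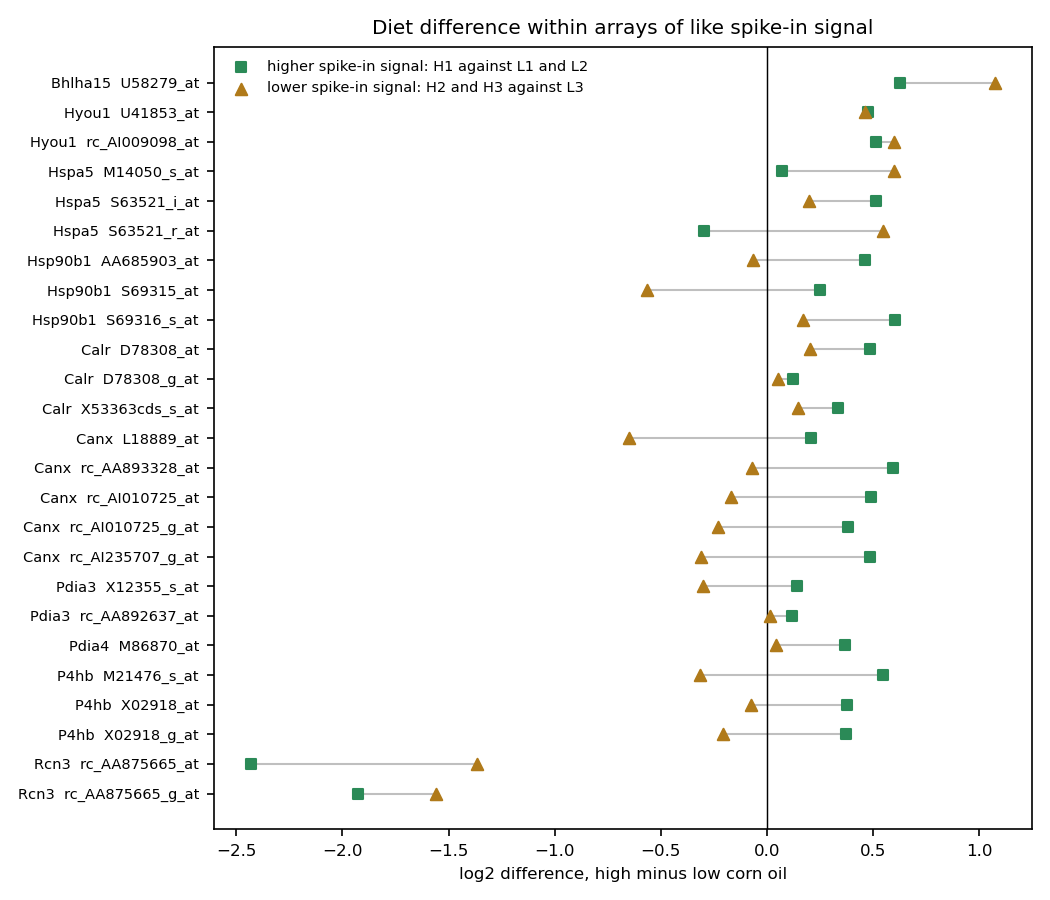
Log2 difference between diets for each probe set, computed separately among the 3 arrays with spike-in signal above the median (1 high, 2 low) and the 3 below it (2 high, 1 low). Bhlha15, both Hyou1 probe sets and both Rcn3 probe sets keep their side in both subsets, and all 5 Canx probe sets are above 0 in the first and below 0 in the second.

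The count of calls rested on high 1. With it left out, limma called 214 of 5244 probe sets, or 4.08%, and 2 of the 24 tested member probe sets. These were Bhlha15, with a log2 difference of 1.07 ± 0.12 (SE, limma adjusted p = 0.0208), and rc_AI009098_at of Hyou1, with 0.72 ± 0.14 (SE, limma adjusted p = 0.0487). No probe set of Hspa5, Hsp90b1, Calr, Canx, Pdia3, Pdia4, P4hb or Rcn3 was called. With quantile normalization as well, rc_AI009098_at was no longer called (0.69 ± 0.15, limma adjusted p = 0.0631), and the 2 calls were Bhlha15 and, on the lower side, S69315_at of Hsp90b1 (-0.51 ± 0.096, limma adjusted p = 0.0460). The members were chosen by this same contrast and the array left out is the high one nearest to the low group, so these p-values are no test of the diet and support nothing about the members.

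Likeness to Bhlha15 was also measured over all 6 arrays, as the root mean square difference between log2 values each centred on its own mean, for the 4153 probe sets with 1 gene and values above 0 on every array. The nearest folding gene was Hyou1, with rc_AI009098_at at 0.19 and rank 24, followed by its U41853_at at rank 251 and M14050_s_at of Hspa5 at rank 270, both at 0.31. The other chaperone probe sets compared ranked from 518 to 3286. Nearest of all were Ins2 and Chrng, both at 0.13, and Slc22a6, Ppp1r13l, Zfp692 and Acsl1, all at 0.14. The Ins2 probe set (rc_AI014020_f_at) carries the suffix for probes shared within a sequence family and read 596, 1213 and 1104 against 432, 422 and 436. Since Bhlha15 splits the arrays by diet, this measure mostly ranks probe sets by the same diet difference.

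The rest of the secretory pathway was spread to both sides. Of 138 further genes listed for it, 53 were on the array and 51 were tested. Of these, 32 were higher and 19 lower, none passed the threshold, and the median log2 difference was 0.082. Over all tested probe sets 53.9% were higher, with a median of 0.032, and the counts by group below are to be read beside that share. All 4 tested cochaperones were higher, by 0.12 to 1.60. Hspa13, the small Hsp70-like protein Stch, read 227, 994 and 842 against 139, 86.3 and 64.1 (1.60 ± 0.49, SE). It passed the filter on low values only through the high arrays, so its side was set by the filter, and its low values are under the pseudocount. The other 3 were led by Dnajc1, a BiP cochaperone of the membrane (0.48 ± 0.32), and each of their differences was under 2 SE. Disulfide exchange had 3 of 4 higher, among them Ero1b, an oxidase that recharges disulfide isomerase (0.48 ± 0.25), and Erp29 (0.43 ± 0.24). The lectin cycle and glycosylation had 4 of 5 higher, with Ddost and Dad1, subunits of oligosaccharyltransferase, at 0.32 ± 0.16 and 0.27 ± 0.16.

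The other groups of the pathway held genes on both sides, apart from degradation. Among sensors and transcription factors 3 of 6 were higher, including Ppp1r15a, the GADD34 phosphatase subunit (0.38 ± 0.24), while the protease Mbtps2, which releases ATF6, was at -0.35 ± 0.32. Prolyl isomerases and collagen folding had 4 of 8 higher, from Fkbp11 (0.37 ± 0.18) to Fkbp2 (-0.23 ± 0.21). Entry into the reticulum had 3 of 6 higher, with Sec61b of the translocon at 0.17 ± 0.12 and Ssr4 at -0.11 ± 0.12. Both tested degradation genes, Vcp and Bag6, were at -0.13 ± 0.16. Calcium-binding proteins and pumps had 8 of 12 higher, led by Casq1 (1.00 ± 0.45) and the calcium channel Itpr2 (0.53 ± 0.28). Casq1 was dim, with a mean value of 647, and read 597 on high 1 against 730 on low 2. The 8 include Atp2a3 and Atp2c1, which were near 0, at 0.0034 and 0.012. Hspa13, Ddost and Sec61b were the 3 of the 51 genes whose diets did not overlap, all on the higher side. The filter set the side of Hspa13, so that gene adds nothing to the count. Of all tested probe sets 15.5% did not overlap, 8.83% on the higher side.

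Genes known to depend on Mist1 in gland cells lay on both sides. Of 10 listed, 4 were tested and 3 were higher, with a median of 0.10. Rab26, a small GTPase of secretory granules, read 652, 1063.5 and 1189 against 839, 323 and 95.5 (1.15 ± 0.51, SE), with low 1 above high 1. Rab3d, another granule GTPase, read 5738, 2954 and 3217 against 5799, 6476 and 3751 (-0.44 ± 0.30, SE), with high 1 above low 3.

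**Figure D4:**
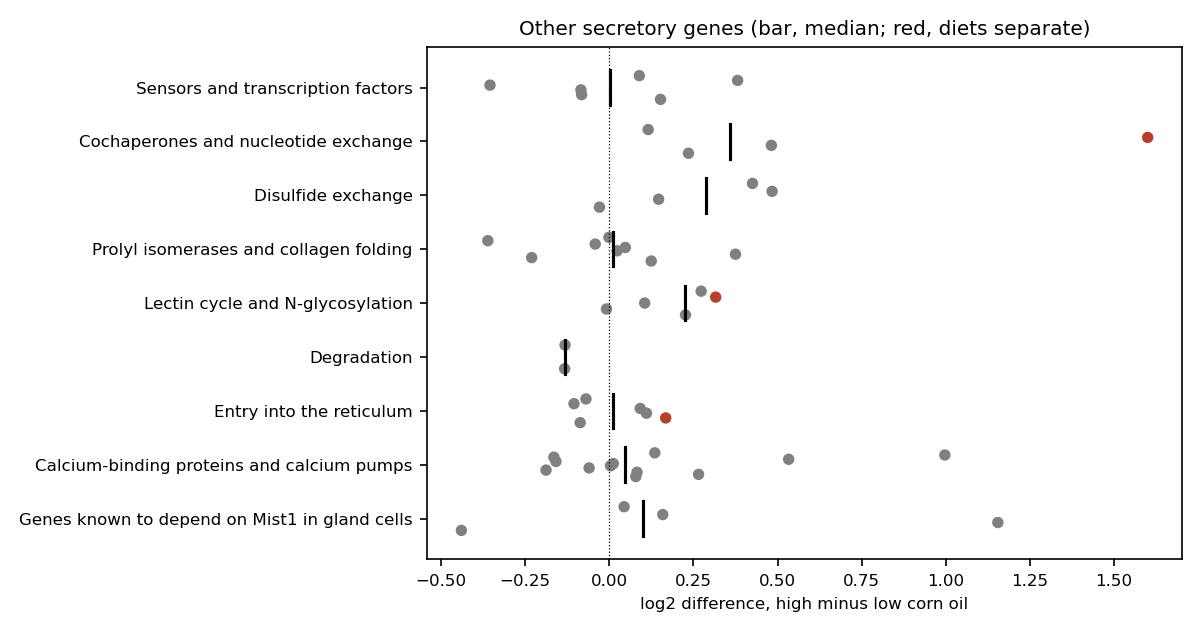
Log2 difference between diets for the 51 tested genes of the wider secretory pathway, 1 point per gene, by group of the list. All 4 cochaperones lie above 0, among them Hspa13, whose side was set by the filter on low values. Both degradation genes lie below 0, and the medians of the other groups run from 0.0032 to 0.29.

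Markers of other cell types that make much protein were thinly covered. Of 14 plasma and B cell markers only Cd79b and Sdc1 were on the array. Cd79b read 384, 826 and 1160 on the high arrays and 357, 364 and 584 on the low arrays, and Sdc1, which epithelium also expresses, read 4932, 4862 and 4544.5 against 3979, 4134 and 3877. Their summed level was 5316 to 5704 on the high and 4336 to 4497.5 on the low arrays, the same side as Bhlha15, and neither was at or below 0 on all arrays. The part of plasma cells in the Bhlha15 and Hyou1 values was not tested, and immunoglobulin markers were not analysed here. Of 7 basal markers only 3 were on the array. All 3 were higher, with a median of 0.27 and summed levels of 17075 to 18958 on the high and 14030.4 to 15038 on the low arrays. For Krt14 the diets overlapped (0.14 ± 0.19, SE), and high 1 was the lowest of the 6 arrays at 2861. Secretory genes of the ventral prostate lobe, Scgb1d2, Scgb2a1 and the spermine-binding protein Sbp, varied widely within both diets. Scgb1d2 read 3636, 36941 and 43508 on the high arrays and 45781, 15797 and 18710.2 on the low arrays, high on high 2, high 3 and low 1. Scgb2a1 read 12778.5, 45920.0 and 53290.4 against 61356, 22675 and 42862, and Sbp read 1891, 45313 and 53056 against 39729, 6801 and 12179. All 3 genes put the arrays in the order of Bhlha15 in all 6 pairs of the same diet, although Bhlha15 itself spread only 1.02-fold over the low arrays. Of all tested probe sets, 13.9% shared 5 or 6 of the 6 pairs with Bhlha15, a looser mark than all 6, whose share is not given here. Sbp comes from the luminal list and was set beside Scgb1d2 and Scgb2a1 after its values were seen. The diets overlapped in all 3 genes. Their log2 differences were -0.39 ± 0.92 for Scgb1d2, -0.31 ± 0.58 for Scgb2a1 and 0.18 ± 1.26 for Sbp (SE). The part of ventral lobe tissue in the Bhlha15 values was not tested.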

How the data were processed

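The deposited intensity values, 1 per probe set and array on a linear scale, were used as the authors left them. The submitters' processing notes name MAS5 and no other tool, with no version. From 18.6% to 23.1% of an array's values were at or below 0, and the step that made them is not given in the sources used here. Gene names came from the platform annotation, updated through gene identifiers to GRCr8 RefSeq symbols: of 8799 probe sets, 59 were controls, 7006 had 1 gene, 308 several and 1426 none. Values below 0 were set to 0 and transformed as log2(value + 156.1), the median of all values divided by 4. Probe sets with a mean of at least 343, the 40th percentile, were tested: 5244 probe sets of 3162 genes. The high minus low difference was tested by limma 3.58.1 under R 4.3.3 (lmFit, eBayes with trend, 2-sided, Benjamini-Hochberg, threshold 0.05, no covariate). The fit was checked on simulated data. The arrays came from separate rats, and their number, 3 per diet, limits the precision.

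The members and lists were chosen with earlier results of these data known. Named were all member probe sets, the 2 genes with the smallest p in each of 9 groups of the wider list (1 probe set per gene, the brightest), the 6 genes nearest to Bhlha15, and of each marker list the 2 brightest genes and those at or below 0 on all arrays, of which there were none; of these, only markers beside a result are printed, and other markers were named after their values were seen. The correlations of the deviations of same-numbered arrays were -0.054, -0.20 and 0.18, and those of differently numbered arrays ran from -0.16 to 0.27. The main fit did not pair the arrays. The 18 other settings tried changed the pseudocount, transformation, filter, normalization, trend, array weights, blocks, the group of high 3 and the arrays left out.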

Additional observations from a re-analysis of the deposited data

How the results depend on the processing

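The 22 chaperone probe sets had 15 to 19 members higher under all 18 other settings. Bhlha15, both Hyou1 and both Rcn3 probe sets, and D78308_at and X53363cds_s_at of Calr kept the sign of their log2 difference in all 18. Their diets did not overlap, so leaving out an array or changing the pseudocount could not turn that sign. M14050_s_at and S63521_i_at of Hspa5, all Hsp90b1 probe sets, X12355_s_at of Pdia3 and X02918_at of P4hb kept theirs as well. So did L18889_at, rc_AA893328_at and rc_AI010725_at of Canx. Among these, S69315_at, X12355_s_at and L18889_at stayed on the lower side. The number of probe sets past the threshold was 9 with no filter, 218 with quantile normalization and high corn oil replicate 1 left out, and 0 to 214 when each array was left out in turn. The number whose diets did not overlap was 395 when high 3 was counted as low, 2377 with quantile normalization without high 1, and 1097 to 2419 on leaving out an array, where fewer arrays have to be separated. Bhlha15 was 1.05 with quantile normalization without high 1 (limma adjusted p = 0.0220, no test of the diet, since the contrast chose the gene), and ran from 0.83 to 1.07 on leaving out an array. Its limma adjusted p was 0.0208 to 0.998 over all settings. The median of the 25 probe sets was 0.15 with the spike-in block and 0.14 to 0.35 on leaving out an array. The median number of pairs ordered as Bhlha15 was 2 with quantile normalization without high 1 and 2 to 2 on leaving out an array, with 4 pairs in place of 6. Medians of marker lists were 0.69 for endothelium with no filter, -0.90 for T and mast cells at the 60th percentile filter and -0.36 to 0.088 for them on leaving out an array, and, when high 3 was counted as low, -0.34 for fibroblasts and 0.13 for plasma and B cells. With the replicate number as a block limma called 0 probe sets, 554 had an unadjusted p under 0.05, and Bhlha15 was 0.92 ± 0.18 (SE).

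Of 432 values for single probe sets, 19 changed sign. With array weights D78308_g_at of Calr was -0.0070, M86870_at of Pdia4 -0.13 and X02918_g_at of P4hb -0.079. With quantile normalization without high 1, M86870_at was -0.17, X02918_g_at -0.069 and rc_AA892637_at of Pdia3 -0.039, and S69315_at of Hsp90b1 was -0.51, and rc_AI009098_at of Hyou1 0.69. When high 3 was counted as low D78308_g_at was -0.0036. Leaving out each array in turn, the ranges were -0.031 to 0.12 for D78308_g_at, -0.16 to 0.29 for M86870_at, -0.14 to 0.17 for X02918_g_at, -0.072 to 0.35 for M21476_s_at of P4hb, -0.11 to 0.26 for rc_AA892637_at, -0.046 to 0.82 for S63521_r_at of Hspa5, -0.035 to 0.50 for rc_AI010725_g_at and -0.011 to 0.78 for rc_AI235707_g_at of Canx. Except where fewer arrays or probe sets entered, the cause was not tested. Detection calls were not used here, so dim values, such as those of Rcn3 on the high arrays, could not be called present or absent.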

Other observations

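Trib3, a pseudokinase raised by the PERK and ATF4 branch of the unfolded protein response, was too dim to be tested, with a mean value of 217, and was singled out after its values were seen. It was listed below 0 on all 3 high corn oil arrays and read 588, 949 and 553 on the low arrays. Its side was opposite to that of Hyou1 and of most Hspa5 values, and no fold can be given for values below 0.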
